A study of Homo sapiens with 6 samples.

Results

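The transcripts of the vascular endothelial growth factor (VEGF) and platelet-derived growth factor (PDGF) system were examined in NCRM-1, a human iPSC line made from CD34+ cord blood cells with episomal plasmids. Of the 19977 genes in the count files, 10 belong to this group by their GENCODE 44 symbols. They are the VEGF ligands VEGFA, VEGFB, VEGFC and PGF, the VEGF receptors FLT1, KDR and FLT4, and the PDGF ligands PDGFA, PDGFB and PDGFC, and all 10 had enough counts to be tested. The cells, whose genotype is given as wild type, were seeded as single cells in E8 medium in vertical wheel bioreactors and sequenced after 4 days as aggregates. The groups were 3 libraries grown in E8 plus heparin sodium salt at 0.1 µg/ml and polyethylene glycol at 10 mg/ml (PEG and HS) and 3 grown in E8 without additives (E8 control). In both media 50% of the volume was exchanged on day 2, and a ROCK inhibitor was present at seeding. The comparison asks how the additives, chosen to keep aggregates stable, affect the transcripts of the cells. The labels speak of 1 control and 1 treated bioreactor, so the medium cannot be told apart from the vessel, and p-values describe the spread between samples that may share a vessel. One free-text label describes the supplemented medium for all 6 libraries, and the per-library treatment field was used.

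VEGF ligands are secreted dimers that signal through receptor tyrosine kinases. KDR is the main signalling receptor for VEGFA, FLT1 binds VEGFA, VEGFB and PGF tightly but signals weakly and also exists as a soluble decoy, and FLT4 is the receptor for VEGFC. The neuropilins NRP1 and NRP2 are co-receptors for VEGF ligands and for class 3 semaphorins. PDGF ligands signal through PDGFRA and PDGFRB, and PDGFC and PDGFD are secreted in a latent form that must be cleaved. Several of these ligands, among them the longer forms of VEGFA, bind heparin and heparan sulfate. KDR is transcribed in undifferentiated human pluripotent cells as well as in endothelium and its mesodermal precursors.

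PDGFA changed most among the 10 genes and was 35.0% higher in PEG and HS. The receptors moved in opposite directions, since KDR and FLT4 were higher and FLT1 was lower, and VEGFA was 14.0% higher. In all, 5 of the 10 genes were called at an adjusted p under 0.05, 4 higher (VEGFA, KDR, FLT4 and PDGFA) and 1 lower (FLT1). Over all 16505 genes tested 25.3% were called, 12.2% higher and 13.1% lower. The median log2 fold change of the 10 genes was 0.21, against 0.0031 over all genes tested. For 7 of the 10 genes all 3 libraries of a medium lay above all 3 of the other, as was so for 39.3% of all genes tested. The other 5 genes (VEGFB, VEGFC, PGF, PDGFB and PDGFC) were not called. Each of the 5 called genes was called in the same direction under all 14 alternative fits. In bulk RNA, a change in the number of cells that transcribe a gene and a change in its level per cell cannot be told apart.

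**Figure D1:**
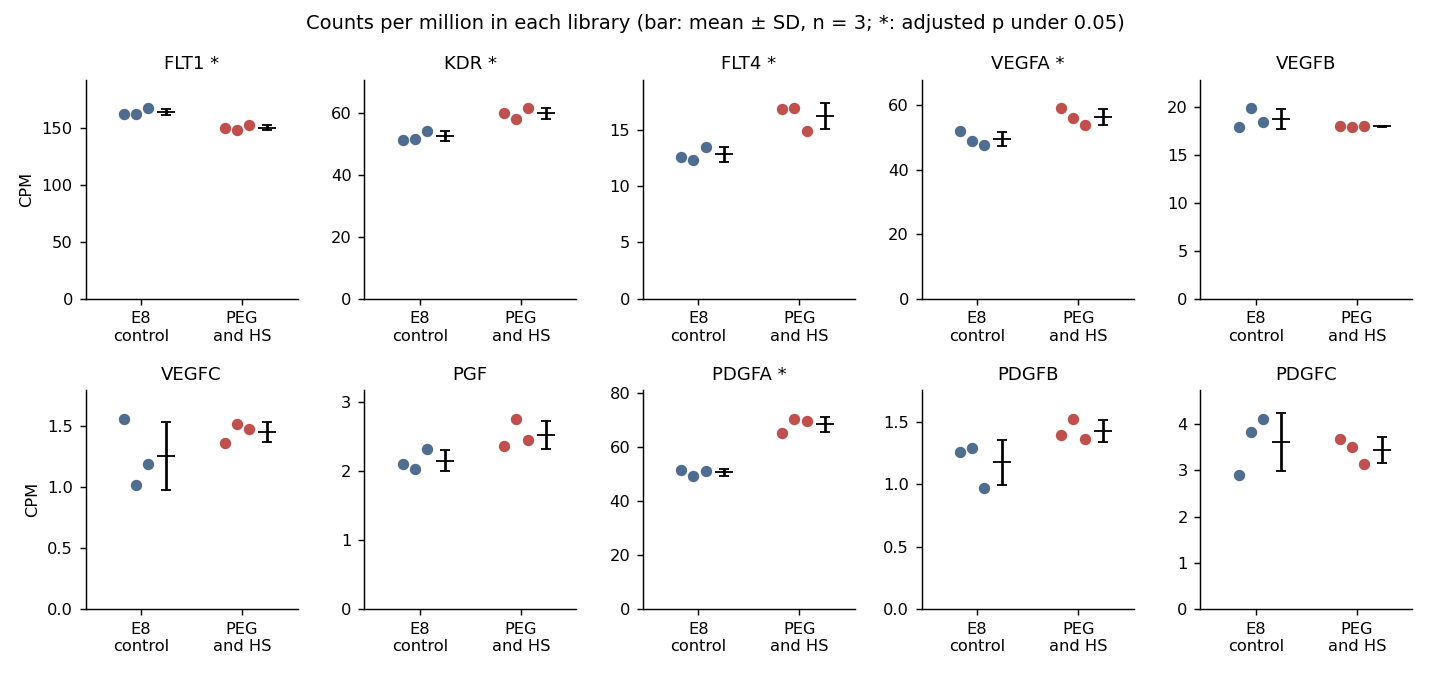
CPM (the counts of a gene scaled to a common library total) of the 10 genes, with a point for each library, E8 control in blue and PEG and HS in red, and a bar for the mean ± SD (n = 3). Each axis starts at 0. FLT1 is the only panel marked with an asterisk (adjusted p under 0.05) in which the red points lie under the blue ones, and PDGFA shows the widest gap, with 65.3 to 70.5 CPM against 49.3 to 51.7 CPM.

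The libraries held 26991279 to 36185138 counts, and the common biological coefficient of variation was 3.12%. The pluripotent label was checked with 12 marker genes, all above 1 CPM in both media, from TERT to DNMT3B. Of these 6 were called higher and 4 lower (83.3% called, against 25.3% over all genes tested). Of 19 endothelial markers 9 lay above 1 CPM in E8 control and 5 in PEG and HS, and the defining genes PECAM1 and CDH5 were at 0.0936 and 0.337 CPM in E8 control and at 0.0987 and 0.286 CPM in PEG and HS. The receptors for VEGF were thus measured in libraries with PECAM1 and CDH5 near 0.

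Upstream sequences are shown for FLT1, the receptor that was lower, and KDR, the receptor for the same ligand that was higher. They are the 250 bases before the RefSeq start site nearest the MANE Select start (GRCh38.p14), 5′ to 3′ on the strand of the gene, and windows were matched for 6 of the 10 genes (VEGFB, VEGFC, PGF, FLT1, KDR and PDGFA). Windows of VEGFA, FLT4, PDGFB and PDGFC were not analysed here. The PDGFA window overlaps an exon of a longer PDGFA transcript and its letters are not shown, and the end of the FLT1 window nearest the start belongs to the first exon of a GENCODE transcript. Capitals mark matches on either strand to 3 of the motifs searched, namely the GC box, written GGGCGG, the cyclic AMP response element, written TGACGTCA, and a TATA box, for which the letters searched were TATAAA. The core of ETS sites was searched with the letters CCGGAA.
FLT1, chr13:28495129-28495378, minus strand: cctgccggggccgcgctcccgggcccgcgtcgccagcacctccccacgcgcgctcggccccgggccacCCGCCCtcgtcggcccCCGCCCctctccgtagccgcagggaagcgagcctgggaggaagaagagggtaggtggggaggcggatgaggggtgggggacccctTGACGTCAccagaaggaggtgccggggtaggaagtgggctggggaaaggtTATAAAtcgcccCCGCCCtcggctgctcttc
KDR, chr4:55125596-55125845, minus strand: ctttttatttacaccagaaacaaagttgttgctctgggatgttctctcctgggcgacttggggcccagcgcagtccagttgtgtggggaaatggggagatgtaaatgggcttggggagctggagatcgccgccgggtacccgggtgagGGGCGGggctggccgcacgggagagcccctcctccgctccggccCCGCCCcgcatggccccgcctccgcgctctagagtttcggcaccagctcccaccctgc

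The FLT1 window holds a TGACGTCA match that begins 81 bases before the start, a TATAAA match at 31 bases and 3 GC boxes. Neither TGACGTCA nor TATAAA occurs in the KDR and PDGFA windows. Over the 15108 genes with such a window, 2.50% hold TGACGTCA, 9.04% TATAAA and 59.7% a GC box. KDR has 2 GC boxes, at 102 and 58 bases, and PDGFA has 3 that follow each other directly from 71 bases, with a CCGGAA match at 98 bases (a motif found in 20.3% of windows). The letters ACGTG, a form of the core of the hypoxia response element, are in none of the 6 windows and in 20.9% of all windows. The form GCGTG was not searched for, and its letters on the other strand, CACGC, can be read in the FLT1 window shown. The windows were thus not shown to lack this core. PDGFA has 4 RefSeq start sites, and the window nearest MANE Select was searched. These matches describe letters only, and whether any factor bound them was not measured.

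FLT1 (ENSG00000102755, chromosome 13, 28300346 to 28495145 of GRCh38) had the most reads of the group. Its level was 150, 148 and 152 CPM in the PEG and HS libraries and 162, 162 and 167 CPM in the E8 control libraries. Each PEG and HS library was lower than each E8 control library. The fall was small, 8.38% (log2 fold change -0.13, SE 0.0282, adjusted p = 0.0038). Counts per gene do not separate the membrane receptor from its soluble form. Of its transcript words of 31 bases, 3.09% also occur in other genes, and the pseudogene FLT1P1 holds more of them than any other gene.

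KDR (ENSG00000128052, chromosome 4, 55078481 to 55125595) had 60.0, 58.0 and 61.5 CPM with PEG and HS, compared with 51.4, 51.6 and 54.3 CPM in the E8 controls. All 3 PEG and HS libraries were the higher ones, by 14.1% (log2 fold change 0.19, SE 0.0382, adjusted p = 0.00176). FLT4 (ENSG00000037280, chromosome 5, 180601506 to 180649624), the lymphatic VEGF receptor, had 16.8, 16.9 and 14.9 CPM in PEG and HS against 12.6, 12.3 and 13.5 CPM in E8 control. It rose by 26.2% and the media did not overlap (log2 fold change 0.34, SE 0.0683, adjusted p = 0.00192). PEG and HS replicate 3 was the lowest of its group for FLT4 and still lay above each E8 control library.

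The balance among the receptors was also read within each library, where scaling between libraries cancels. The ratio of KDR to FLT1, each per kilobase of exon, was 0.794, 0.776 and 0.8 in PEG and HS and 0.629, 0.630 and 0.644 in E8 control. The groups lay apart, and the mean ratio was 1.25 times as high in PEG and HS. The ratio of FLT4 to FLT1 was 0.153 ± 0.0124 (SD, n = 3) in PEG and HS and 0.111 ± 0.00328 in E8 control, again without overlap. The ratio of FLT4 to KDR overlapped between media, at 0.194 ± 0.0182 and 0.175 ± 0.00326. Both ratios to FLT1 were thus higher in PEG and HS. As they are combinations of genes already tested, no test was made on them.

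**Figure D2:**
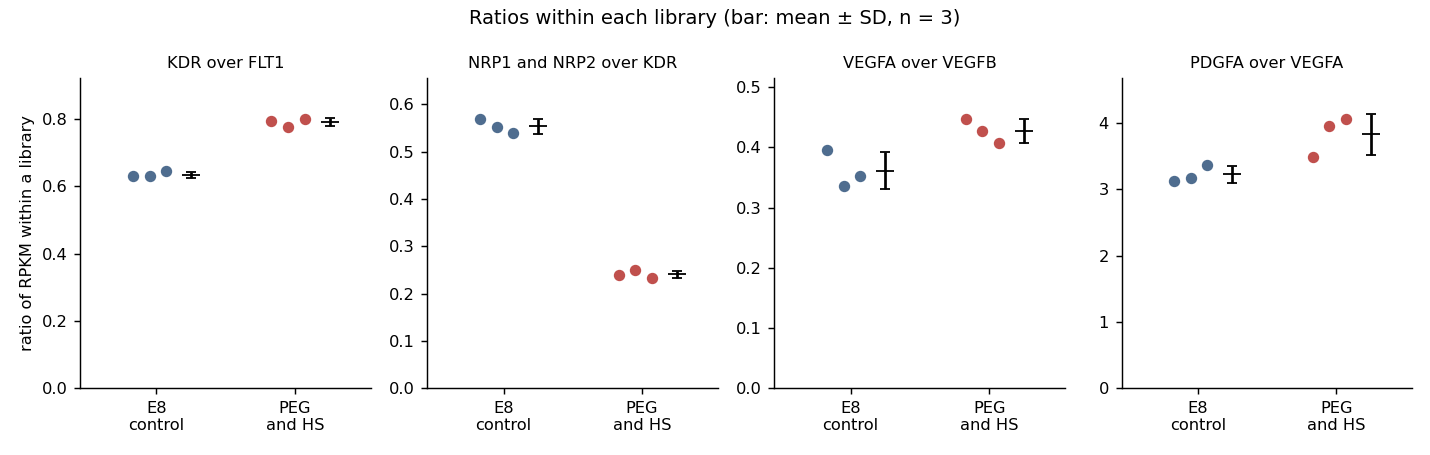
Ratios of levels per kilobase of merged exon within each library, with E8 control in blue and PEG and HS in red. Each point is a library, and bars give mean ± SD (n = 3). The size of a ratio depends on the length used. KDR over FLT1 is higher in PEG and HS (0.790 against 0.635), the neuropilins over KDR are lower (0.241 against 0.553), and VEGFA over VEGFB and PDGFA over VEGFA are higher.

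Among the ligands of these receptors, VEGFA (ENSG00000112715, chromosome 6, 43770184 to 43786487), the chief angiogenic ligand, had 59.0, 56.1 and 53.9 CPM in PEG and HS. Its E8 control libraries had 51.9, 49.0 and 47.7 CPM, so the media did not overlap. The difference passed the test (log2 fold change 0.19, SE 0.0438, adjusted p = 0.00502). Over the alternative fits the log2 fold change of VEGFA ranged from 0.15 to 0.22 and the highest adjusted p was 0.0384. An antisense lncRNA, ENSG00000272114, overlaps 1.30% of the VEGFA exon sequence and was not among the counted genes.

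VEGFB (ENSG00000173511, chromosome 11, 64234584 to 64239264) is a ligand of FLT1 but not of KDR or FLT4. It had 18, 17.9 and 18.1 CPM with PEG and HS, compared with 17.9, 19.9 and 18.5 CPM in the E8 controls. The media overlapped and VEGFB was not called (log2 fold change -0.059, 95% interval -0.18 to 0.063, adjusted p = 0.503). The interval leaves room for a change of at most a few per cent upwards and is narrower than for the genes with few counts. Its lower end (-0.18) allows a larger fall than that of FLT1 (log2 fold change -0.13). Per kilobase of merged exon, the ratio of VEGFA to VEGFB was 0.427 ± 0.0199 in PEG and HS and 0.361 ± 0.0310 in E8 control (SD, n = 3), without overlap. Which of the genes is higher depends on the length used. By the length of a representative transcript (MANE Select), VEGFA lay above VEGFB in both media. The levels were then 15.6 and 9.98 CPM per kilobase in PEG and HS, and 13.7 and 10.4 in E8 control.

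VEGFC (ENSG00000150630, chromosome 4, 176683538 to 176792922), the lymphangiogenic ligand of FLT4, was near 1 CPM. It had 1.36, 1.52 and 1.48 CPM with PEG and HS, compared with 1.56, 1.02 and 1.19 CPM in the E8 controls, where a single control library was above all the others. No difference was detectable at this depth (log2 fold change 0.22, 95% interval -0.24 to 0.69, adjusted p = 0.51). PGF (ENSG00000119630, chromosome 14, 74941834 to 74955626), placental growth factor, had 2.37, 2.76 and 2.45 CPM with PEG and HS, compared with 2.11, 2.03 and 2.33 CPM in the E8 controls. The PGF libraries did not overlap, but the lowest PEG and HS library was close to the highest control and PGF was not called (log2 fold change 0.22, 95% interval -0.11 to 0.55, adjusted p = 0.331).

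PDGFA (ENSG00000197461, chromosome 7, 497258 to 520296), which acts through PDGFRA, had 65.3, 70.5 and 69.6 CPM with PEG and HS, compared with 51.7, 49.3 and 51.1 CPM in the E8 controls. The lowest PEG and HS library was far above the highest E8 control library. The log2 fold change was 0.43 (SE 0.039, adjusted p = 7.42e-07), and it stayed between 0.41 and 0.47 over the alternative fits. PDGFB (ENSG00000100311, chromosome 22, 39223359 to 39244982), the ligand that recruits mural cells through PDGFRB, had 1.39, 1.52 and 1.36 CPM with PEG and HS, compared with 1.26, 1.29 and 0.970 CPM in the E8 controls. Its libraries did not overlap, with a narrow gap, and it was not called (log2 fold change 0.28, 95% interval -0.17 to 0.74, adjusted p = 0.378). PDGFC (ENSG00000145431, chromosome 4, 156760454 to 156971799) had 3.68, 3.5 and 3.13 CPM with PEG and HS, compared with 2.89, 3.82 and 4.10 CPM in the E8 controls. The PDGFC libraries of the media were mixed (log2 fold change -0.08, 95% interval -0.39 to 0.23, adjusted p = 0.74), and without E8 control replicate 3 the log2 fold change was 0.025.

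The pattern of PDGFA over the 6 libraries was most like those of FAM222B, MTRR and MANF (Pearson's r of log2(CPM + 1) 0.9978, 0.9967 and 0.9963) among 13556 genes at 1 CPM or more. With 2 groups of 3 libraries, many genes reach a high r, so these 3 are a description only. MANF encodes a secreted protein of the endoplasmic reticulum stress response and MTRR an enzyme that keeps methionine synthase active.

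Levels between genes were compared per kilobase of merged exon (RPKM). In E8 control the order was FLT1 with 13.0 RPKM, PDGFA 11.1, VEGFB 9.52, KDR 8.27, VEGFA 3.43, FLT4 1.44, PDGFC 0.601, VEGFC 0.480, PGF 0.372 and PDGFB 0.294 RPKM. In that order the libraries of PDGFC and VEGFC overlapped, as did those of VEGFC and PGF, and the other neighbours did not. In PEG and HS, PDGFA with 14.9 RPKM stood above FLT1 with 11.9 RPKM without overlap, whereas KDR (9.44 RPKM) and VEGFB (9.15 RPKM) overlapped, as did PDGFC and VEGFC. FLT1 lay at the 80.1 percentile of the genes tested in E8 control, and PDGFB at the 19.0 percentile. The 5 called genes were thus among the 6 with the highest level, and VEGFB was the other.

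The place of VEGFA depends on the length used. Its merged exons cover 14431 bases, against 3609 bases of its MANE Select transcript, the transcript that RefSeq and Ensembl agree on as representative. By the MANE Select length VEGFA had 13.7 RPKM in E8 control and 15.6 RPKM in PEG and HS and came next in both media, behind FLT1 (23.0 and 21.1 RPKM) and PDGFA (18.5 and 25.0 RPKM). PGF, at 1.24 RPKM in E8 control, stood above PDGFC and VEGFC by that length. PDGFA was above FLT1 in PEG and HS and under it in E8 control by either length.

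**Figure D3:**
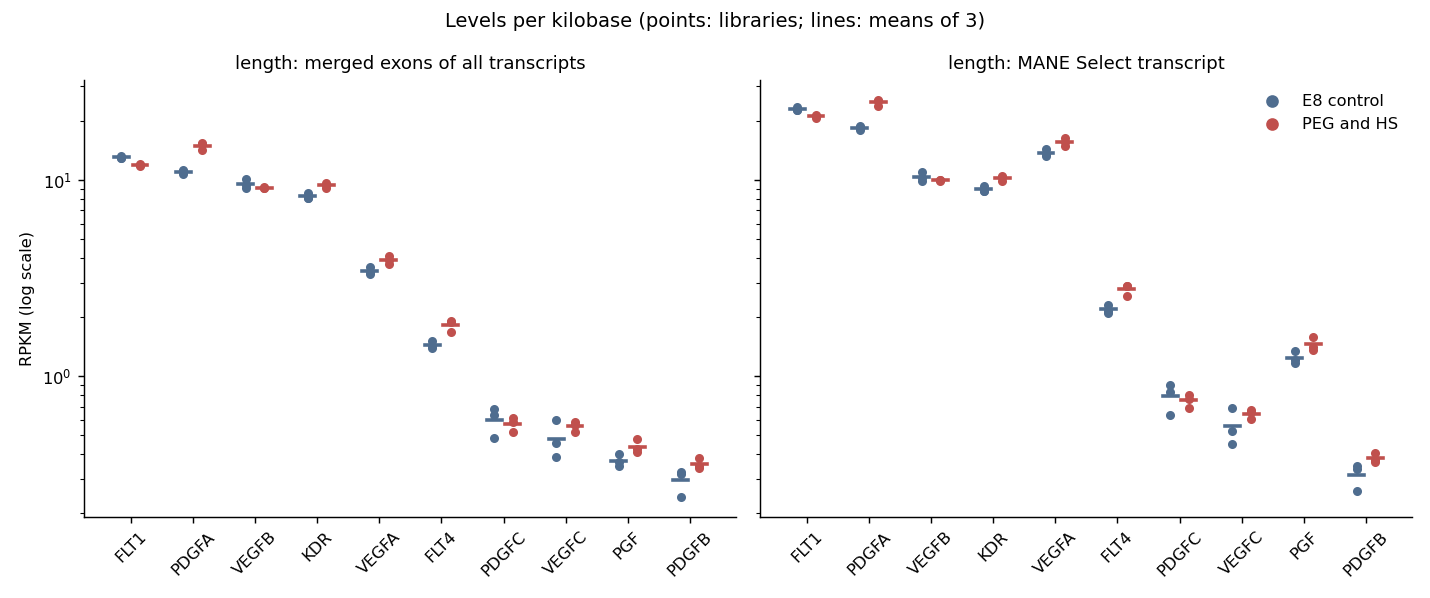
Levels of the 10 genes in RPKM on a log axis, ordered by their mean in E8 control, by merged exons of all transcripts (left) and by the MANE Select transcript (right). Points are libraries and short lines means of 3 (E8 control in blue, PEG and HS in red). VEGFA in E8 control is at 3.43 RPKM on the left, under KDR, and at 13.7 RPKM on the right, above KDR.

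Beyond the 10 genes, the neuropilins showed the largest differences of the system. Of the 7 other ligands, receptors and co-receptors, NRP1 and NRP2 were lower, PDGFD was higher, and VEGFD, PDGFRA, PDGFRB and PDGFRL were not called. This was 42.9% called in a short list, against 25.3% over all genes tested. NRP2 (ENSG00000118257, chromosome 2, 205681990 to 205798133), which pairs with FLT4 and KDR, had 30.8, 30.8 and 30.6 CPM with PEG and HS, compared with 61.8, 59.3 and 62.4 CPM in the E8 controls. It was 1.99-fold lower with the additives, in every library (log2 fold change -0.99, SE 0.0388, adjusted p = 5.02e-11). NRP1 (ENSG00000099250, chromosome 10, 33177492 to 33336262) was much less abundant, with 0.623, 0.743 and 0.650 CPM with PEG and HS, compared with 1.89, 2.37 and 1.5 CPM in the E8 controls. The NRP1 libraries did not overlap (log2 fold change -1.51, SE 0.243, adjusted p = 0.000273). Both neuropilins were called under all 14 alternative fits. Per kilobase of merged exon, the summed level of NRP1 and NRP2 relative to KDR was 0.240, 0.249 and 0.233 in PEG and HS and 0.569, 0.551 and 0.539 in E8 control. The size of this ratio depends on the length used. The merged exons of NRP1 and NRP2 cover 11522 and 13896 bases, against 5640 and 6644 bases of their MANE Select transcripts. For KDR these lengths are 6341 and 5833 bases.

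PDGFD (ENSG00000170962, chromosome 11, 103907189 to 104164379), a PDGFRB ligand, had 8.81, 8.88 and 8.21 CPM with PEG and HS, compared with 7.30, 5.54 and 6.37 CPM in the E8 controls. The PDGFD libraries lay apart, higher with the additives (log2 fold change 0.44, SE 0.0967, adjusted p = 0.0036). The receptors for PDGF were low. PDGFRA had 3.80, 2.80 and 2.51 CPM with PEG and HS, compared with 4.15, 3.69 and 3.82 CPM in the E8 controls, with PEG and HS replicate 1 inside the control range (log2 fold change -0.35, 95% interval -0.68 to -0.026, adjusted p = 0.109). Without that library PDGFRA had a log2 fold change of -0.55 and an adjusted p of 0.0183. PDGFRA shares 16% of its transcript words with other genes, so its count depends on how shared reads were assigned. The gene ENSG00000282278 holds more of these words than any other gene. PDGFRB was at 6.11 ± 0.425 CPM with PEG and HS, compared with 5.95 ± 0.802 CPM in the E8 controls (SD, n = 3, log2 fold change 0.041, 95% interval -0.19 to 0.27, adjusted p = 0.829). PDGFRL, a receptor-like gene without a kinase, had 3.56 ± 0.169 and 3.96 ± 0.167 CPM (SD, n = 3, adjusted p = 0.394). VEGFD, with 18 counts over the 6 libraries, could show no difference (95% interval of the log2 fold change -1.66 to 1.64, adjusted p = 0.997).

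**Figure D4:**
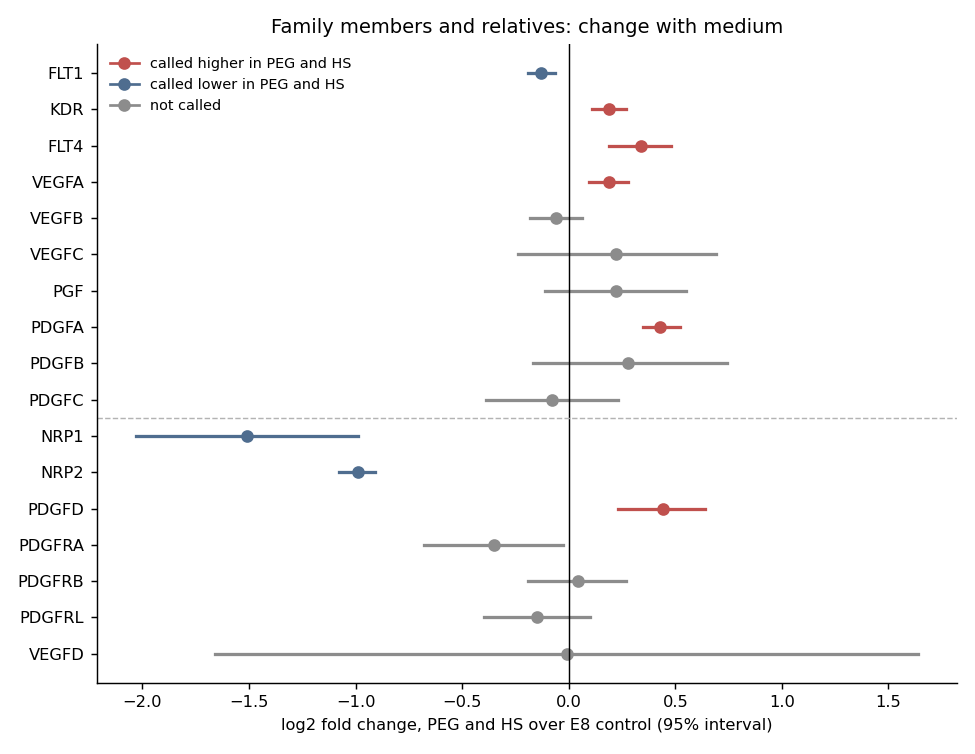
Log2 fold change of PEG and HS over E8 control with its 95% interval, for the 10 genes (above the dashed line) and 7 relatives (under it). Red marks genes called higher, blue lower and grey not called. Intervals are narrow for well-counted genes such as PDGFA (0.35 to 0.52) and wide for VEGFD (-1.66 to 1.64), and NRP1 (-1.51) and NRP2 (-0.99) lie furthest from 0.

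Of 13 tested genes that release or activate the ligands, 2 were higher, 2 lower and 9 not called (30.8% called, against 25.3% over all genes tested). FURIN, the protease that processes VEGFC and PDGF precursors, had 52.2 ± 1.19 and 52.7 ± 0.830 CPM (SD, n = 3, adjusted p = 0.825). Higher in PEG and HS were HPSE, the heparanase that frees heparan-bound ligands (4.58 ± 0.372 against 3.30 ± 0.301 CPM, log2 fold change 0.46, adjusted p = 0.0113), and the gelatinase MMP2 (90 ± 2.6 against 74.0 ± 2.75 CPM, log2 fold change 0.28, adjusted p = 2.8e-05). Lower were CTSD, a lysosomal protease (log2 fold change -0.19, adjusted p = 0.000518), and PLAU, which cleaves latent PDGFD. PLAU had 10.9 ± 1.01 and 12.8 ± 0.439 CPM (log2 fold change -0.23, adjusted p = 0.0336), and over the alternative fits its adjusted p was 0.00841 to 0.125, with the call lost under DESeq2 and without any 1 library other than PEG and HS replicate 3. The median log2 fold change of this list was -0.014.

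Of 28 signal transducers that act next to the receptors, 8 were higher and 3 lower (39.3% called, against 25.3% over all genes tested). Their median log2 fold change was -0.0096. PTPRB, an endothelial phosphatase that dephosphorylates KDR and TEK, had 7.46 ± 0.681 CPM with PEG and HS, compared with 4.61 ± 0.467 CPM in the E8 controls (SD, n = 3, log2 fold change 0.69, adjusted p = 0.000144). PIK3R1, a regulatory subunit of PI3 kinase, and the adaptor SHC1 were higher with log2 fold changes of 0.32 (adjusted p = 0.00184) and 0.26 (adjusted p = 8.9e-06). SHC2, a neural adaptor also known to bind KDR, fell from 17.8 ± 1.56 to 8.35 ± 0.369 CPM (log2 fold change -1.09, adjusted p = 4.23e-08). SHB, an adaptor of KDR, fell from 12.6 ± 0.486 to 6.92 ± 0.738 CPM (log2 fold change -0.87, adjusted p = 1.39e-06). SRC was lower by little (log2 fold change -0.12, adjusted p = 0.0466, 0.0062 to 0.19 over the alternative fits). The number called higher was 5 without E8 control replicate 2 and 5 without E8 control replicate 3.

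VEGFA is a target of the hypoxia-inducible factors (HIF), so their list was described beside it. Of 30 HIF pathway and target genes, 9 were higher, 3 lower and 18 not called (40% called, against 25.3% over all genes tested). The median log2 fold change of this list was 0.043. HIF1A itself had 268 ± 4.43 and 269 ± 3.08 CPM (SD, n = 3, adjusted p = 0.902). The glycolytic enzyme LDHA (log2 fold change 0.23, adjusted p = 9.37e-06) and the collagen prolyl hydroxylase P4HA1 (log2 fold change 0.26, adjusted p = 0.00142) rose with VEGFA. DDIT4, an inhibitor of mTORC1, fell from 30.6 ± 0.970 to 17.6 ± 0.853 CPM (log2 fold change -0.80, adjusted p = 2.25e-08). EGLN3, a prolyl hydroxylase that marks HIF for breakdown, fell from 24.8 ± 0.878 to 16.5 ± 0.566 CPM (log2 fold change -0.58, adjusted p = 1.08e-06), and ADM, the vasodilator adrenomedullin, fell from 70.7 ± 1.04 to 62.8 ± 1.02 CPM (log2 fold change -0.17, adjusted p = 0.00129). EPAS1, which encodes HIF-2 alpha, was called higher (log2 fold change 0.32, adjusted p = 0.0341) and lost the call with each of the 6 libraries left out in turn, and with DESeq2, with an adjusted p of up to 0.148 over the alternative fits. The number called higher was 5 without PEG and HS replicate 3 and 5 without E8 control replicate 1.

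Among 18 tested genes of the angiopoietin and other angiogenic systems, 4 were higher and 3 lower (38.9% called, against 25.3% over all genes tested). TIE1 (log2 fold change 0.57, adjusted p = 0.00207) and its partner TEK (log2 fold change -0.89, adjusted p = 4.23e-05), the angiopoietin receptor, went in opposite directions, from 3.06 ± 0.0620 to 4.54 ± 0.265 CPM and from 4.97 ± 0.255 to 2.69 ± 0.119 CPM (SD, n = 3). ANGPT1, the ligand of TEK, was higher (1.58 ± 0.221 to 2.53 ± 0.230 CPM, log2 fold change 0.66, adjusted p = 0.0115). SEMA3A, a semaphorin that binds NRP1, rose (log2 fold change 0.24, adjusted p = 0.00195). The angiogenesis inhibitors THBS1 (log2 fold change -0.59, adjusted p = 7.7e-06) and SERPINF1 (log2 fold change -0.37, adjusted p = 0.000106) fell. ESM1, a transcript of endothelial tip cells, had no count in any library.

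Markers of other cell types moved with the medium in part. Of 17 tested endothelial markers, 1 was higher, 2 were lower and 14 not called (17.6% called, against 25.3% over all genes tested). ERG was higher (7.20 ± 0.677 to 11.7 ± 1.35 CPM, log2 fold change 0.69, adjusted p = 6.31e-05). VWF (log2 fold change -1.47, adjusted p = 0.00017) and GATA2 (log2 fold change -1.23, adjusted p = 0.00147) were lower. The summed level of the endothelial markers was 42.1 to 50.0 CPM with PEG and HS, compared with 41.6 to 46.6 CPM in the E8 controls. The largest part was EGFL7, at 21.9 and 22 CPM, which was not called. Mural and mesenchymal cells carry PDGF receptors. Of their 16 markers, 8 were lower and 8 not called (50% called, against 25.3% over all genes tested, where 13.1% were lower). The median log2 fold change of these markers was -0.43. The lower ones included RGS5 (log2 fold change -1.43, adjusted p = 2.71e-07), LUM (log2 fold change -1.19, adjusted p = 0.0019) and COL1A1 (log2 fold change -1, adjusted p = 9.67e-11). The summed level of the 16 markers was 515 to 550 CPM with PEG and HS, compared with 643 to 692 CPM in the E8 controls. This sum mostly reflects a few genes, namely NOTCH3 (302 and 339 CPM), COL1A1 (60.1 and 120 CPM) and COL1A2 (98.4 and 104 CPM, not called). Trophoblast is a lineage with high FLT1 and PGF. Of its 14 markers 8 were tested, with a median log2 fold change of -0.81. Of these 8 markers, 4 were lower (50% called, against 25.3% over all genes tested, where 13.1% were lower). They included TFAP2A (6.00 ± 0.230 to 0.603 ± 0.269 CPM, log2 fold change -3.30, adjusted p = 9.84e-09), KRT7 (log2 fold change -0.92, adjusted p = 1.9e-05) and HAND1. HAND1 rests on 16 counts in all, and its adjusted p of 0.0276 reached 0.0861 with a library left out. The defining trophoblast genes CGA and GCM1 had 0 and 3 counts over the 6 libraries. The summed level of the list was 91.2 to 97.0 CPM with PEG and HS, compared with 105 to 108 CPM in the E8 controls. Most of this sum was SDC1, at 78.6 and 74.6 CPM, which was not called. The part of these markers in the differences of FLT1, KDR, PDGFA and the neuropilins was not tested.

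**Figure D5:**
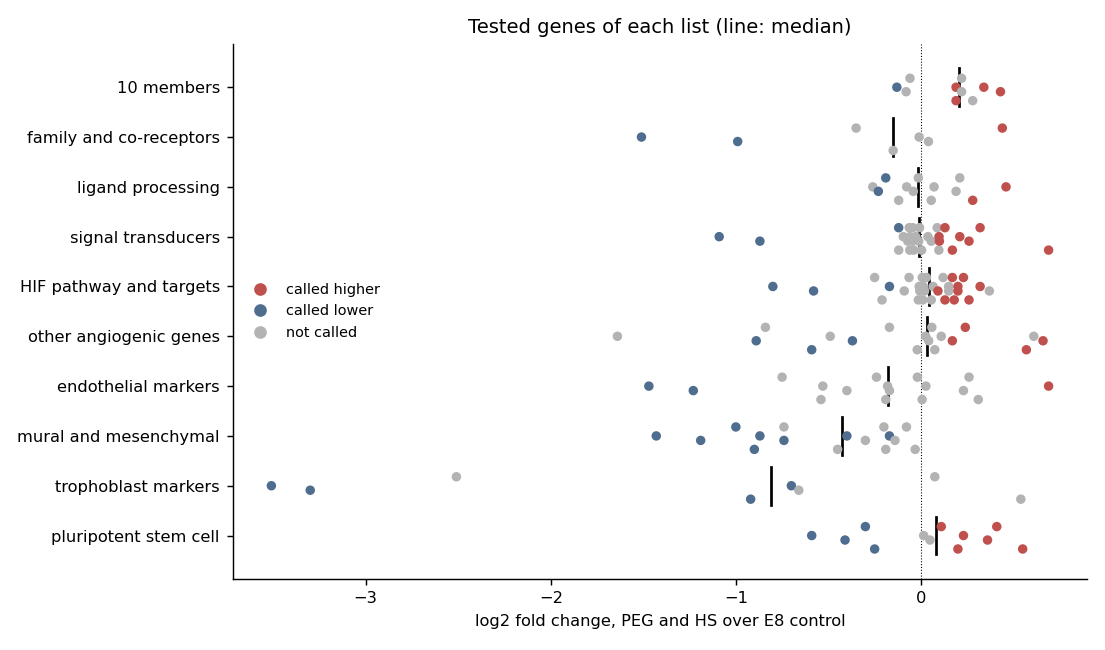
Log2 fold change of PEG and HS over E8 control for the tested genes of each list, a point for each gene, with red for genes called higher, blue for lower and grey for not called, and a line at the median. Points are spread vertically only for legibility. The 10 genes have a median of 0.21, the HIF list 0.043 and the mural and mesenchymal list -0.43.

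Of the 12 pluripotency markers, 6 were higher, 4 lower and 2 not called (83.3% called, against 25.3% over all genes tested). Their median log2 fold change was 0.078. NANOG (log2 fold change 0.55, adjusted p = 6.55e-10), TERT (log2 fold change 0.41, adjusted p = 0.000116) and L1TD1 (log2 fold change 0.36, adjusted p = 1.49e-06) were higher, and SOX2 (log2 fold change -0.59, adjusted p = 4.79e-10), PODXL (log2 fold change -0.41, adjusted p = 3.19e-09) and LIN28A (log2 fold change -0.30, adjusted p = 2.64e-06) were lower.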

How the data were processed

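Bulk polyadenylated RNA of 6 libraries was analysed, 3 of PEG and HS and 3 of E8 control. Per the labels and the methods, the authors prepared stranded libraries, trimmed reads with Trim Galore 0.6.7, mapped them to GRCh38 with STAR 2.6.1 inside an nf-core pipeline, and deposited raw counts per gene. The counting tool, its strand setting and the annotation release are not given in the sources used here. Of 19977 identifiers, 19916 matched GENCODE 44. Genes reaching 10 counts in total were tested with edgeR 4.0.16 in R 4.3.3 (TMM, glmQLFit, glmQLFTest, Benjamini-Hochberg adjustment over all genes tested, called at an adjusted p under 0.05). SE was taken as |log2 fold change| / √F, and 95% intervals use the t quantile of the fit. CPM is scaled by TMM, and RPKM is that CPM per kilobase of merged GENCODE exons. Replicates of a medium were more spread than counting error allows (chi-square / df 2.61 to 3.60) and were kept separate. With 3 against 3 libraries no exact permutation p can be below 0.1. Alternatives were DESeq2 1.42.0, limma-voom (limma 3.58.1), other normalizations and filters, a block for the replicate number, leaving out each library in turn, and other transcript lengths. The MANE Select length was added after the data were seen. The fits were tested on simulated data. The 10 genes, the lists and the tests were chosen with earlier results of these data known. Named were the 10 genes, their 7 relatives, in each list up to 3 called genes per direction, by size of change, the 3 genes most like PDGFA, and genes overlapping a member. FURIN, HIF1A, ESM1, PECAM1, CDH5, CGA, GCM1, DNMT3B, EGFL7, NOTCH3, COL1A2 and SDC1 were named outside that rule.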

Additional observations from a re-analysis of the deposited data

How the results depend on the processing

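The 10 genes kept their counts of 4 called higher and 1 lower under each alternative fit. A few list counts moved. With DESeq2, 1 gene of ligand processing was called lower in place of 2. With each library left out in turn this number was 1 to 2. The number of signal transducers called higher was then 5 to 8, and that of HIF genes called higher 5 to 7. Mural and mesenchymal genes called lower numbered 6 to 11 with a library left out, against 8 in the main fit. With a stricter filter on low counts they numbered 10. With a library left out, genes that were not called changed sign, at log2 fold changes of -0.21 to 0.025 for PDGFC, -0.07 to 0.13 for PDGFRB and -0.35 to 0.43 for VEGFD. With the replicate number as a block, 4 of the 10 genes were called higher and 1 lower, and 4444 of 16505 genes in all against 4173. Deviations of libraries with the same number correlated at 0.031 to 0.043, inside the range of -0.094 to 0.054 for different numbers. These values are not independent, since deviations within a medium sum to 0. They do not settle whether the numbers pair the samples. By the longest transcript or the MANE Select length, 8 of the 10 levels in E8 control moved by more than 1 SD. Depth limits VEGFC, PGF, PDGFB and PDGFC, at 247 to 679 counts over the 6 libraries.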
